A study of Mus musculus with 4 samples.

Results

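The 49 genes described here encode the enzymes of amino acid breakdown and of the urea cycle, and they were followed in the livers of hemojuvelin knockout and wild type mice. They were taken by name from a list of liver enzymes, out of 21776 protein-coding genes, and found in the deposited assemblies as the loci that overlap their exons on build GRCm38. The knockout mice were homozygous for a disrupted hemojuvelin gene on a C57BL/6 background, and the wild type mice were C57BL/6 animals from the Jackson Laboratories. All mice were males that went onto the AIN-93G diet with 2.5 mg iron per kg at 5 weeks of age, stayed on it for 50 days and gave liver at 12 weeks, so every library came from an iron-poor diet. There were 2 knockout and 2 wild type libraries of whole-liver RNA, and the labels do not say that each came from its own animal, so p-values measure the spread between these libraries, which may be technical. The labels give no litter, batch or sequencing date. The question was how loss of hemojuvelin changed the liver transcriptome under iron deficiency. In bulk liver, fewer cells of a type and less RNA per cell cannot be told apart.

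Amino acids that the body does not need for protein are broken down mainly in the liver. Transaminases move their nitrogen onto glutamate and aspartate, the carbon skeletons enter the citric acid cycle or become glucose and ketones, and ammonia is turned into urea by hepatocytes around the portal vein. Ammonia that escapes is caught as glutamine by glutamine synthetase in hepatocytes around the central vein. Many of these genes are under the control of glucocorticoids, glucagon acting through cyclic AMP, and liver factors such as HNF4 alpha. Hemojuvelin is a co-receptor for bone morphogenetic proteins on hepatocytes, where it maintains expression of the iron hormone hepcidin.

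The values are FPKM, fragments per kilobase of assembled transcript normalized to how many fragments mapped, which the authors made with Cufflinks separately in each library. They were scaled here so that the median gene had the same level in each library, and a value in scaled FPKM is a level per transcript length. The knockout libraries held about 55.0 and 132 M fragments and the wild type libraries about 87.0 and 51.3 M, an estimate that rests on the spacing of the confidence bounds. Knockout replicate 1 was the most fragmented assembly, with 2.15 loci per gene, against 1.48 in knockout replicate 2 and 1.88 and 1.72 in the wild type libraries. Hjv, written Hfe2 in the annotation, had no usable locus in knockout replicate 1. It reached 0.237 scaled FPKM in knockout replicate 2, where 14.3% of the transcript was covered. The wild type libraries had 9.22 and 29.6 scaled FPKM, with 45.1% and 81.5% covered. Hepatocyte markers were abundant in all libraries, read over 6 of 11 listed genes. Their summed levels were 9798 and 12507 scaled FPKM in the knockout and 9833 and 7936 in the wild type libraries. Alb had no usable locus in any library, and neither had any of 6 exocrine pancreas markers. A usable locus is one that could be assigned to a single gene, so other loci may have been assembled there. The SD of the log2 difference between the 2 libraries of a group over 7929 genes was 0.650 in the knockout and 0.421 in the wild type group.

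Of the 49 genes, 46 and 44 had a usable locus in the knockout libraries, against 45 and 46 in the wild type libraries, and 41 had a value in all 4 libraries and were tested. Amino acid genes lay more often below than above wild type in the knockout livers. Both knockout libraries lay below both wild type libraries for 21 of the 41, and above both for 5, while the groups overlapped for 15. Over all 7929 genes tested, 23.8% lay below and 22.3% above in the same way. The median log2 difference, knockout minus wild type, was -0.28 over the 41 genes and 0.0169 over all genes tested, and single genes ran from -2.62 to 1.90. No gene in the transcriptome (0, or 0% in either direction) passed an adjusted p of 0.05 in limma, and the lowest was 0.167. Without adjustment, at p under 0.05, limma called 424 genes lower in knockout liver, or 5.35% of those tested, and 463 genes higher, or 5.84%. Of the 41 amino acid genes, 9 were among the lower and 3 among the higher calls. On the deposited scale, without the scaling described above, these calls were 140 lower and 864 higher over all genes, and 13 amino acid genes lay below and 9 above wild type, where 9.21% of all genes lay below and 35.9% above. Leaving out a library moved these counts, and with 1 library against 2 a lack of overlap is more common. Without knockout replicate 1, limma called 458 genes at an adjusted p under 0.05, and 22 amino acid genes lay below and 15 above wild type, where 41.2% of all genes lay below and 39.7% above. Without knockout replicate 2 it called 13 genes, with 29 amino acid genes below and 6 above, against 38.4% and 39.4% of all genes. Without wild type replicate 1 it called 2 genes, with 24 below and 6 above, against 32.8% and 32.9% of all genes. Without wild type replicate 2 it called 1 gene, with 22 below and 10 above, against 34.1% and 33.7% of all genes. An exact permutation test of 2 libraries against 2 cannot give a p under 0.33 for a single gene.

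**Figure D1:**
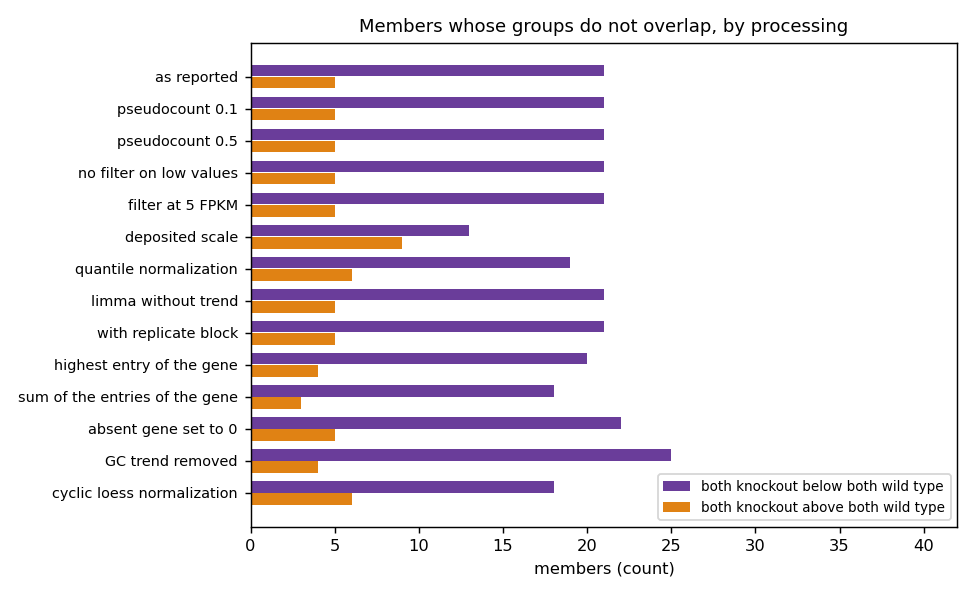
Number of the tested amino acid genes whose knockout values all lie below, or all above, the wild type values, under each processing setting. Below outnumbers above under every setting shown, from 13 against 9 on the deposited scale to 25 against 4 with the GC trend removed when all libraries are kept.

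This background differed with level, and the amino acid genes are among the more abundant in liver. Their median level was 95.4 scaled FPKM over the 4 libraries, against 7.42 for all genes tested. Among the 1973 genes that averaged at least 20 scaled FPKM, 38.9% lay below and 14.2% above wild type in both knockout libraries, with a median log2 difference of -0.15. The 38 amino acid genes at that level had 18 below, or 47.4%, and 5 above, or 13.2%, with a median of -0.25. Set against genes with that minimum level, the share below wild type was nearer to the background than the count over all genes shows. These genes were not matched in level, since their median was 45.7 scaled FPKM, against 96.3 for the 38 amino acid genes.

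**Figure D2:**
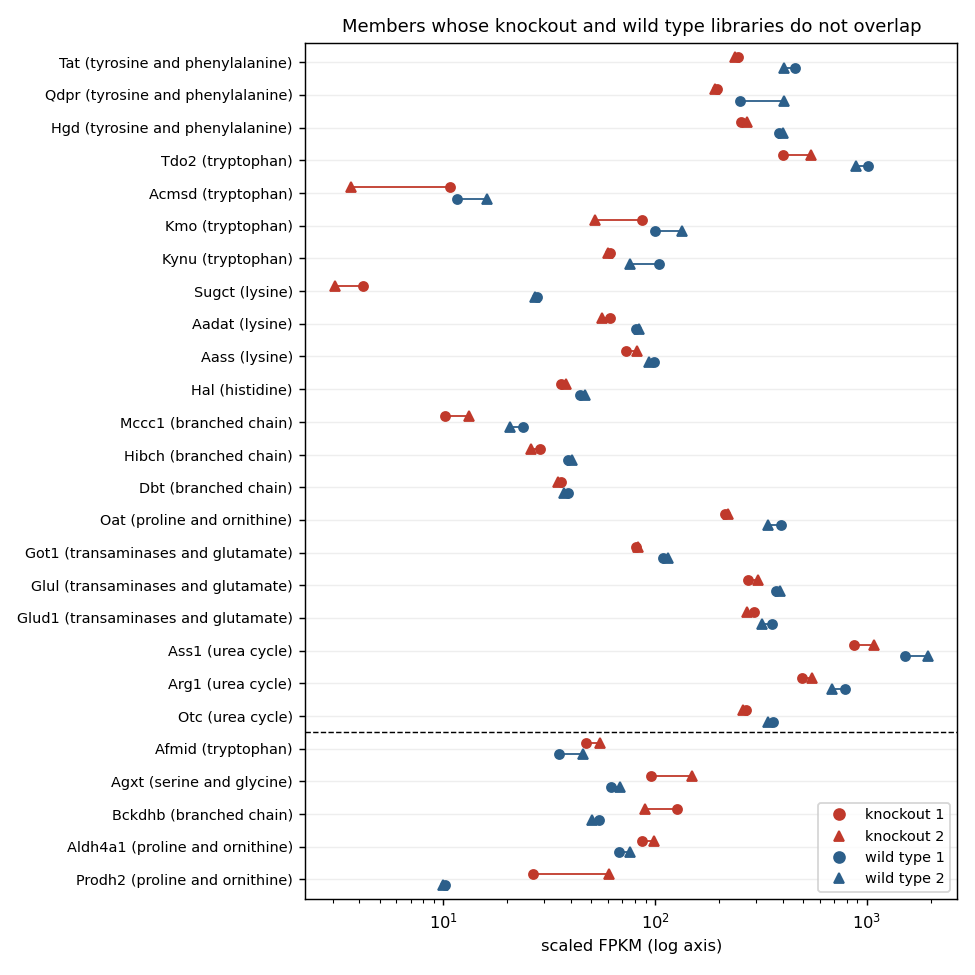
Level in scaled FPKM, on a log axis, of each tested gene whose groups do not overlap, with 1 point per library for knockout and wild type liver. The pathway stands beside the gene name, and tested genes whose groups overlap are not shown. Knockout points lie below both wild type points for 21 genes, with Sugct the widest separation, and above both for 5 genes, among them Prodh2, Bckdhb and Agxt.

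The 300 bases around the transcription start (250 before and 50 after it) are shown for 4 genes whose groups stood far apart, and for Kmo, chosen after its matches were seen. All are from RefSeq on GRCm38.p6 and read along the gene's own strand. Capitals mark matches to a glucocorticoid receptor motif (TGTTCT, or AGAACA on the other strand), a cyclic AMP element motif (TGACGT) or an HNF4 core (CAAAGTC, or GACTTTG on the other strand). Among genes whose groups did not overlap, those farthest below wild type in the knockout livers were Sugct (chr13:17694716-17695015, minus strand) and Tdo2 (chr3:81975679-81975978, minus strand), and those farthest above were Prodh2 (chr7:30493408-30493707, plus strand) and Bckdhb (chr9:83924887-83925186, plus strand). Kmo is at chr1:175631943-175632242, plus strand.
Sugct: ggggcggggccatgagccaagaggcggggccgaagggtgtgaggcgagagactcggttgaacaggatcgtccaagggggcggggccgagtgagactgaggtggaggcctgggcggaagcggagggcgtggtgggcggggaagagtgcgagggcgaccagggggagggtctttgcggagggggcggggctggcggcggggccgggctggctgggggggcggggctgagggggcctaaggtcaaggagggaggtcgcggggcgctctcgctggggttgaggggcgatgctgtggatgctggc
Tdo2: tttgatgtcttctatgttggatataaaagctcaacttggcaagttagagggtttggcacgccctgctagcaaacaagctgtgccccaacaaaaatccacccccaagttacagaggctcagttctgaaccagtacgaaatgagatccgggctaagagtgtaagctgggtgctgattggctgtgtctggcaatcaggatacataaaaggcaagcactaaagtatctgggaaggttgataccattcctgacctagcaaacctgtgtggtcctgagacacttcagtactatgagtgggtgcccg
Prodh2: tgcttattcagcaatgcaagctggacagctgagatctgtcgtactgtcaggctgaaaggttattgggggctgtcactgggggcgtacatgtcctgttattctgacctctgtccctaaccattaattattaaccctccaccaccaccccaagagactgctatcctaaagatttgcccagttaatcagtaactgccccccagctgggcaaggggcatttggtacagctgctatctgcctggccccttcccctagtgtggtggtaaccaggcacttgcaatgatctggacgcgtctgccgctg
Bckdhb: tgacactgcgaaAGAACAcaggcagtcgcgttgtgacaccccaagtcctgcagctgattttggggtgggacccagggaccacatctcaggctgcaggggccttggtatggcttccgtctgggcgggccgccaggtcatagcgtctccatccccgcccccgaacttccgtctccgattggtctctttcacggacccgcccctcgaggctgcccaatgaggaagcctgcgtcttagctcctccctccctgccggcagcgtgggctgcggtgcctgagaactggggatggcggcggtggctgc
Kmo: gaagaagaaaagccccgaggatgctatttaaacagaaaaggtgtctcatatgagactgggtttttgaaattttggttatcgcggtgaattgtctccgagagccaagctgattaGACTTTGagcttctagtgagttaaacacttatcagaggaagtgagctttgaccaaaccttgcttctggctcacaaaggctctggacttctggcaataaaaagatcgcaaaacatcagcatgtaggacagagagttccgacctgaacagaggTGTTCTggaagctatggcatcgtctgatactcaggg
None of the 3 motifs was found in the Sugct, Tdo2 or Prodh2 windows, which says only that these letters are not there. Bckdhb held AGAACA near the upstream end of its window, and the other RefSeq start of that gene had no match. Kmo held both GACTTTG and TGTTCT, at separate places. Promoters were found for 40 of the 49 genes, 43 windows in all. The glucocorticoid receptor motif stood in 6 windows, those of Agxt, Aldh6a1, Bckdhb, Haao, Kmo and Qdpr, or 14.0%, against 18.97% of all 32851 promoters. The cyclic AMP element motif stood in that of Aass alone, against 7.51% of all promoters. The HNF4 core stood in those of Aadat and Kmo, or 4.65%, against 4.44% of all promoters.

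The urea cycle and its entry showed levels below wild type in 3 of 5 genes, with a median log2 difference of -0.41. Beside this and the pathway counts that follow, 23.8% of all genes tested lay below wild type and 22.3% above. Among genes averaging at least 20 scaled FPKM the shares were 38.9% and 14.2%. Ass1, argininosuccinate synthetase, which joins citrulline and aspartate, lies on chromosome 2, 31470207 to 31520672 of GRCm38, as all positions here are given. It had 869 and 1082 scaled FPKM in the knockout libraries, against 1513 and 1935 in the wild type libraries. Both knockout values lay below both wild type values, and the mean of 976 ± 150.1 scaled FPKM in knockout liver compared with 1724 ± 299 scaled FPKM in wild type liver (SD, n = 2 each). Its log2 difference was -0.82 (SE 0.26, limma adjusted p = 0.431). Arg1, the arginase that releases urea, had 495 and 549 scaled FPKM in the knockout libraries, against 784 and 683 in the wild type libraries, a log2 difference of -0.49 (SE 0.21, limma adjusted p = 0.486). Otc, the X-linked ornithine transcarbamylase, had 267 and 260.2 scaled FPKM in the knockout libraries, against 359.6 and 341 in the wild type libraries, a log2 difference of -0.41 (SE 0.19, limma adjusted p = 0.491). For both enzymes the groups did not overlap. Cps1, carbamoyl phosphate synthetase, which brings ammonia into the cycle, had 1005 and 706 scaled FPKM in the knockout libraries and 611 and 1332 in the wild type libraries. Asl, argininosuccinate lyase, had 66.7 and 141 scaled FPKM in the knockout libraries and 62.1 and 186 in the wild type libraries. In both genes the spread within a genotype was wider than the difference between them.

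Tryptophan breakdown through kynurenine had the lowest median of the 9 pathways, -0.66, with 4 of 6 genes below wild type and 1 above. Tdo2 (chromosome 3, 81957090 to 81976202), tryptophan dioxygenase, the liver enzyme that opens the indole ring and a classical target of glucocorticoids, had 401 and 544 scaled FPKM in the knockout libraries, against 1013 and 889 in the wild type libraries. Its mean of 472 ± 101 scaled FPKM in knockout liver compared with 951 ± 87.9 scaled FPKM in wild type liver (SD, n = 2 each), a log2 difference of -1.02 (SE 0.25, limma adjusted p = 0.402). Both knockout libraries were well below both wild type libraries. Kmo, kynurenine 3-monooxygenase, had 86.5 and 52.2 scaled FPKM in the knockout libraries, against 99.5 and 134 in the wild type libraries, a log2 difference of -0.77 (SE 0.32, limma adjusted p = 0.467). Kynu, kynureninase, had 61.4 and 59.8 scaled FPKM in the knockout libraries, against 104 and 75.7 in the wild type libraries, a log2 difference of -0.54 (SE 0.23, limma adjusted p = 0.467). Acmsd, which turns the pathway away from NAD synthesis and towards full oxidation, had 10.7 and 3.65 scaled FPKM in the knockout libraries, against 11.6 and 16.1 in the wild type libraries, a log2 difference of -0.99 (SE 0.48, limma adjusted p = 0.508). The 2 knockout values of Acmsd lay far apart, and without knockout replicate 1, the higher, its log2 difference was -1.66 (limma adjusted p = 0.0412), against -0.33 without knockout replicate 2 (limma adjusted p = 0.542). Afmid, the formamidase between Tdo2 and Kmo, was the exception, with 47.03 and 54.8 scaled FPKM in the knockout libraries, against 35.04 and 45.8 in the wild type libraries, both knockout values being higher, and a log2 difference of 0.33 (SE 0.22, limma adjusted p = 0.585). Haao overlapped, with 100.4 and 188 scaled FPKM in the knockout libraries and 55.7 and 166 in the wild type libraries.

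Lysine breakdown was the pathway in which every tested gene, 3 of 3, lay below wild type in both knockout libraries. Sugct encodes the enzyme that activates glutarate with coenzyme A from succinyl-CoA, and its gene lies on chromosome 13, 16857472 to 17695553. It had 4.17 and 3.08 scaled FPKM in the knockout libraries, against 27.6 and 26.9 in the wild type libraries. The wild type pair was tight and the knockout pair far below it, with means of 3.63 ± 0.768 scaled FPKM in knockout and 27.3 ± 0.441 scaled FPKM in wild type liver (SD, n = 2 each). The log2 difference was -2.62 (SE 0.21, limma adjusted p = 0.167), with an unadjusted p of 6.37e-05, rank 2 among all 7929 genes. Its loci were assembled in 3 and 2 pieces in the knockout libraries and 2 and 1 in the wild type libraries, and the adjusted p was 0.886 when pieces were summed, 0.387 for the highest piece, 0.0211 and 0.0486 without knockout replicates 1 and 2, and 0.684 and 0.616 without wild type replicates 1 and 2. Aadat, which transaminates aminoadipate, had 60.9 and 56.1 scaled FPKM in the knockout libraries, against 80.9 and 84.2 in the wild type libraries, a log2 difference of -0.49 (SE 0.18, limma adjusted p = 0.441). Aass, the bifunctional enzyme at the head of the pathway, had 73.2 and 82.4 scaled FPKM in the knockout libraries, against 98.6 and 92.98 in the wild type libraries, a log2 difference of -0.30 (SE 0.18, limma adjusted p = 0.568). These differences were smaller than that of Sugct, although the groups did not overlap.

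Phenylalanine and tyrosine breakdown had 3 of 7 genes below wild type, 4 overlapping and none above, with a median of -0.17. Tat (chromosome 8, 109990437 to 109999803), tyrosine aminotransferase, a classical glucocorticoid and glucagon target, had 246 and 239 scaled FPKM in the knockout libraries, against 456 and 407 in the wild type libraries. The knockout pair was close together and below both wild type libraries, with means of 242 ± 5.20 scaled FPKM in knockout and 432 ± 34.1 scaled FPKM in wild type liver (SD, n = 2 each). The log2 difference was -0.83 (SE 0.19, limma adjusted p = 0.402). Hgd, homogentisate dioxygenase, had 253 and 269.8 scaled FPKM in the knockout libraries, against 383 and 403 in the wild type libraries, a log2 difference of -0.59 (SE 0.19, limma adjusted p = 0.431). Qdpr, which regenerates the tetrahydrobiopterin cofactor, had 195 and 191 scaled FPKM in the knockout libraries, against 251 and 404 in the wild type libraries, a log2 difference of -0.72 (SE 0.29, limma adjusted p = 0.457). Both genes were lower in each knockout library than in either wild type library. The groups overlapped for the other 4 genes. Hpd, which makes homogentisate, had 772 and 1549 scaled FPKM in the knockout libraries and 875 and 985 in the wild type libraries, and Fah, the last enzyme, had 207 and 299 in the knockout libraries and 267 and 293 in the wild type libraries. Pcbd1 had 331 and 260.4 in the knockout libraries and 310.0 and 316 in the wild type libraries. Gstz1 had 420.3 and 253 scaled FPKM in the knockout libraries and 31.9 and 502 in the wild type libraries, and its low value came from wild type replicate 1, where the gene was assembled in 4 pieces. The log2 difference of Gstz1 was 1.35 with all libraries and -0.62 without wild type replicate 1.

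The transaminases and glutamate enzymes had 3 of 5 genes below wild type and 2 overlapping, with a median of -0.34. Got1, the cytosolic aspartate transaminase, had 81.4 and 82.5 scaled FPKM in the knockout libraries, against 109 and 115 in the wild type libraries, a log2 difference of -0.45 (SE 0.18, limma adjusted p = 0.454). Glud1, glutamate dehydrogenase, had 293 and 271 scaled FPKM in the knockout libraries, against 354 and 318 in the wild type libraries, a log2 difference of -0.25 (SE 0.20, limma adjusted p = 0.63). Glul, the glutamine synthetase of hepatocytes around the central vein, had 275 and 306 scaled FPKM in the knockout libraries, against 373 and 389 in the wild type libraries, a log2 difference of -0.39 (SE 0.20, limma adjusted p = 0.514). All 3 were lower in both knockout libraries than in either wild type library. Got2, the mitochondrial form, had 151 and 209.8 scaled FPKM in the knockout libraries and 184 and 186 in the wild type libraries. Gls2, the liver glutaminase, had 59.4 and 114 in the knockout libraries and 96.3 and 113 in the wild type libraries. The groups overlapped for both.

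Proline and ornithine genes differed in direction, with 1 of 4 below wild type, 2 above and 1 overlapping, and a median of 0.06. Oat (chromosome 7, 132557478 to 132576398), ornithine aminotransferase, had 213 and 221 scaled FPKM in the knockout libraries, against 391 and 341 in the wild type libraries. The knockout pair was again tight, and the log2 difference was -0.75 (SE 0.20, limma adjusted p = 0.417). Prodh2 (chromosome 7, 30493622 to 30513402), the hydroxyproline dehydrogenase, stood highest relative to wild type among the 41 amino acid genes tested, with 26.6 and 60.6 scaled FPKM in the knockout libraries, against 10.2 and 9.93 in the wild type libraries. Both knockout values lay above both wild type values but differed from each other, and the means were 43.6 ± 24.1 scaled FPKM in knockout and 10.1 ± 0.199 scaled FPKM in wild type liver (SD, n = 2 each). The log2 difference was 1.90 (SE 0.41, limma adjusted p = 0.402), with 2.48 without knockout replicate 1 (limma adjusted p = 0.0211), 1.32 without knockout replicate 2 (limma adjusted p = 0.117) and 1.44 with the GC trend of each library removed. Aldh4a1, the mitochondrial dehydrogenase shared by proline and hydroxyproline oxidation, had 86.7 and 99.01 scaled FPKM in the knockout libraries, against 67.7 and 76.2 in the wild type libraries, a log2 difference of 0.36 (SE 0.19, limma adjusted p = 0.528). With the GC trend removed, the groups of Aldh4a1 overlapped and its difference was 0.0449. Prodh, proline dehydrogenase, overlapped, with 26.3 and 48.00 scaled FPKM in the knockout libraries and 52.7 and 34.3 in the wild type libraries.

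Branched chain amino acid breakdown had 3 of 4 tested genes below wild type and 1 above, with a median of -0.31. Bckdhb (chromosome 9, 83925145 to 84124240), the beta subunit of the decarboxylase that commits the branched chain keto acids to oxidation, had 127 and 89.9 scaled FPKM in the knockout libraries, against 54.3 and 50.5 in the wild type libraries. Both knockout libraries were higher, with means of 109 ± 26.5 scaled FPKM in knockout and 52.4 ± 2.69 scaled FPKM in wild type liver (SD, n = 2 each) and a log2 difference of 1.02 (SE 0.24, limma adjusted p = 0.402). Dbt, the transacylase of the same complex, had 35.8 and 34.8 scaled FPKM in the knockout libraries, against 38.8 and 37.2 in the wild type libraries, a log2 difference of -0.10 (SE 0.17, limma adjusted p = 0.835) that was 0.10 on the deposited scale and 0.0348 after cyclic loess normalization. With the GC trend removed, the groups of Dbt overlapped. Mccc1, a subunit of the carboxylase of leucine breakdown, had 10.2 and 13.2 scaled FPKM in the knockout libraries, against 23.7 and 20.6 in the wild type libraries, a log2 difference of -0.88 (SE 0.21, limma adjusted p = 0.402). Hibch, the hydrolase of valine breakdown, had 28.5 and 26.00 scaled FPKM in the knockout libraries, against 38.6 and 40.7 in the wild type libraries, a log2 difference of -0.53 (SE 0.18, limma adjusted p = 0.435). With all genes scaled as described, Dbt, Mccc1 and Hibch were lower in both knockout libraries than in either wild type library, while Bckdhb was higher. Mccc1, Dbt and Tdo2 share chromosome 3 with the disrupted gene, at 60.5, 20 and 14.6 Mb from Hjv.

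Serine and glycine genes had 1 of 3 tested genes above wild type, none below and a median of 0.33. Agxt (chromosome 1, 93135240 to 93145421), the peroxisomal transaminase that removes glyoxylate, had 95.05 and 149 scaled FPKM in the knockout libraries, against 61.8 and 67.9 in the wild type libraries. Both knockout libraries were higher, with means of 122 ± 38.1 scaled FPKM in knockout and 64.8 ± 4.35 scaled FPKM in wild type liver (SD, n = 2 each). The log2 difference of Agxt was 0.87 (SE 0.27, limma adjusted p = 0.423). It was 1.19 without knockout replicate 1, 0.55 without knockout replicate 2 and 0.58 with the GC trend of each library removed. Sds, serine dehydratase, had 19.7 and 83.4 scaled FPKM in the knockout libraries and 34.01 and 30.6 in the wild type libraries, with the lowest and the highest value both in knockout liver, and a log2 difference of 0.33 (SE 0.67, limma adjusted p = 0.869). That difference turned with the library, to 1.34 without knockout replicate 1 and -0.68 without knockout replicate 2. With the GC trend of each library removed, the log2 difference of Sds was -0.0494. Gldc, of the glycine cleavage system, had 31.99 and 47.7 scaled FPKM in the knockout libraries and 36.9 and 30.04 in the wild type libraries, and overlapped as well.

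Histidine breakdown had 1 of 4 genes below wild type and 3 overlapping, with a median of -0.21. Hal, the histidase that starts the pathway, had 35.8 and 37.9 scaled FPKM in the knockout libraries, against 44.00 and 46.8 in the wild type libraries, a log2 difference of -0.29 (SE 0.17, limma adjusted p = 0.558). Uroc1, urocanase, had 66.5 and 109 scaled FPKM in the knockout libraries and 102 and 104 in the wild type libraries. Amdhd1, the next enzyme, had 47.7 and 87.2 in the knockout libraries and 41.9 and 50.4 in the wild type libraries. Ftcd, which hands the last carbon to tetrahydrofolate, had 20.01 and 141 scaled FPKM in the knockout libraries and 70.8 and 50.1 in the wild type libraries. For these 3 genes knockout replicate 2 exceeded knockout replicate 1, for Ftcd by the most.

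**Figure D3:**
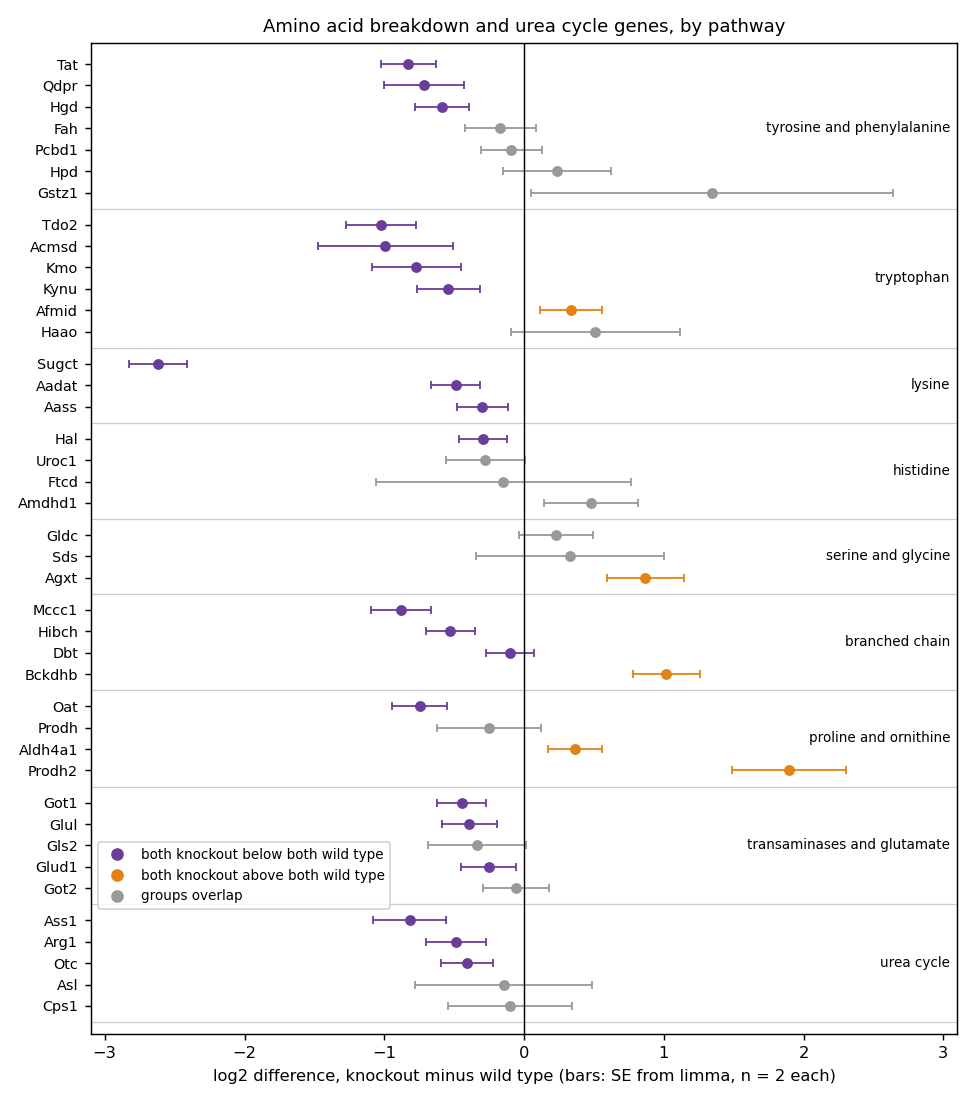
Log2 difference, knockout minus wild type, of scaled FPKM for the 41 tested genes, with bars for 1 standard error from limma. Sugct stands lowest at -2.62 and Prodh2 highest at 1.90, and no gene passed the adjusted threshold.

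Of the 49 genes, 8 were not tested, 5 because their locus was shared with a neighbour in at least 1 library and 3 because it spanned under 50% of a transcript in 1 library. Of the 5, 3 branched chain and lysine genes shared 1 locus with a neighbour in every library, so their values mix both genes. The locus of Aldh6a1 and Bbof1 had 177 and 165 scaled FPKM in the knockout libraries and 162 and 142 in the wild type libraries. That of Gcdh and Syce2 had 207 and 285 in the knockout libraries and 302 and 298 in the wild type libraries. That of Bckdha and B3gnt8 had 14.9 and 100.5 in the knockout libraries and 15.9 and 17.5 in the wild type libraries, with knockout replicate 2 far from the rest. Gpt, alanine transaminase, had 30.2 scaled FPKM in knockout replicate 1, against 31.1 and 35.4 in the wild type libraries, while in knockout replicate 2 its locus was fused with Ppp1r16a. Amt, of the glycine cleavage system, had 14.9 scaled FPKM in knockout replicate 1 and 17.2 in wild type replicate 2, and was fused with Nicn1 in the other libraries. Gpt2 had 54.6 and 54.9 scaled FPKM in the knockout libraries, the second over 45.3% of a transcript, against 78.8 and 131 in the wild type libraries. Ivd had 35.3 and 57.3 in the knockout libraries, the second over 34.6% of a transcript, against 34.4 and 33.7 in the wild type libraries. Sdsl had 2.05 and 2.98 in the knockout libraries, the first over 25.3% of a transcript, against 0.454 and 1.19 in the wild type libraries. For Gpt2, Ivd and Sdsl, 1 knockout value each covered under 50% of a transcript, so no direction was counted for them.

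The GC content of the transcripts moved with these differences, mainly in knockout replicate 2. Over the 41 genes the log2 difference between knockout replicates 2 and 1 had a Spearman correlation with GC content of 0.71, given as a description, since the genes share the same libraries. Over all 7929 genes it was 0.48, and between the wild type replicates it was 0.13 over the 41 genes and 0.26 over all genes. For knockout minus wild type it was 0.56 over the 41 genes and 0.38 over all genes, so the trend was not particular to amino acid genes. Knockout replicate 1 lay below the wild type mean for 31 of the 41 genes, with a median of -0.43, and its differences had a correlation of 0.0751 with GC content. Knockout replicate 2 lay below for 23 of 41, with a median of -0.26 and a correlation of 0.69. Of the 21 genes with 39.6% to 50.1% GC, 18 lay below wild type in both knockout libraries and none above, and the medians were -0.43 for the first knockout library and -0.54 for the other. Of the 20 genes with 50.3% to 58.3% GC, 3 lay below and 5 above, and the medians were -0.36 and 0.42. The shares over all genes of like GC content were not counted. Low-GC genes such as Tdo2, Sugct, Kmo and Aadat were lower in each knockout library. For high-GC genes such as Prodh2, Ftcd and Sds the 2 knockout libraries differed. The part of GC content in these differences was not tested. With the GC trend of each library removed, 25 genes lay below and 4 above wild type, with a median of -0.34, where 23.6% of all genes lay below and 22.3% above, and the high-GC genes had 8 below and 4 above.

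**Figure D4:**
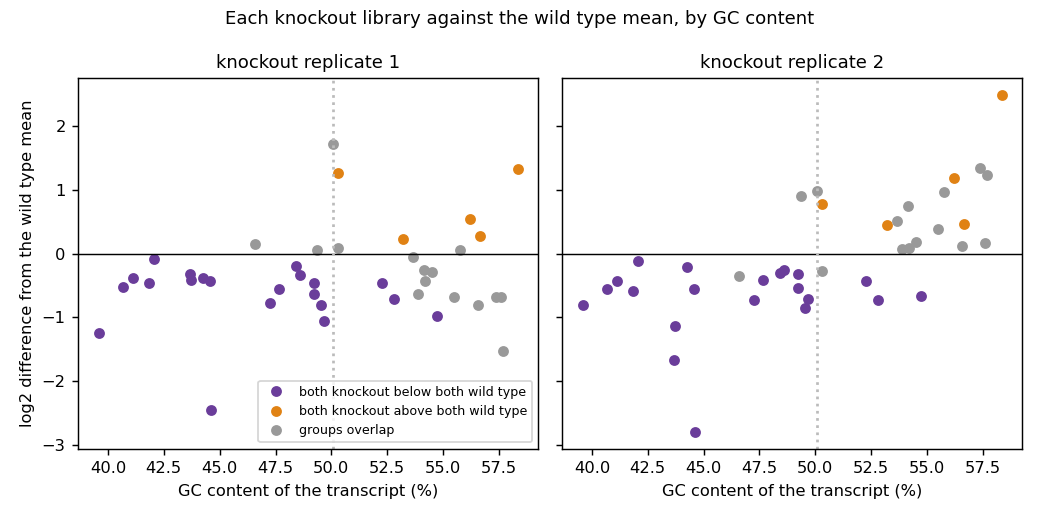
Log2 difference of each knockout library from the wild type mean against the GC content of the transcript, in percent, for the 41 tested genes, colored by whether the groups overlap. The dotted line is the median GC content, and knockout replicate 2 climbs with GC (Spearman 0.69) while knockout replicate 1 does not (0.0751).

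Other enzymes of amino acid metabolism lay on both sides of wild type. Of 47 listed, 34 were tested, of which 10 lay below and 8 above wild type in both knockout libraries, with a median of 0.11. The shares over all genes tested were 23.8% below and 22.3% above. At an unadjusted p under 0.05 in limma, 4 were lower and 3 higher, where 5.35% of all genes tested were lower and 5.84% higher. Kyat3, another kynurenine transaminase, had 33.7 and 61.01 scaled FPKM in the knockout libraries, against 96.3 and 98.2 in the wild type libraries, and Dmgdh, the dimethylglycine dehydrogenase of choline breakdown, had 124 and 107 scaled FPKM in the knockout libraries, against 201 and 189.9 in the wild type libraries. Hsd17b10, of isoleucine breakdown, had 88.5 and 79.1 scaled FPKM in the knockout libraries, against 137 and 146 in the wild type libraries, and Pcca, a subunit of propionyl-CoA carboxylase, had 28.5 and 29.02 scaled FPKM in the knockout libraries, against 45.4 and 43.2 in the wild type libraries. These 4 were lower in both knockout libraries, with log2 differences of -1.08, -0.76, -0.75 and -0.60. Ppm1k, the phosphatase that activates the branched chain decarboxylase, was higher, with 31.4 and 23.8 scaled FPKM in the knockout libraries, against 16.6 and 16.04 in the wild type libraries, a log2 difference of 0.71 next to that of 1.02 for Bckdhb.

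Among 22 carriers of amino acids and urea cycle intermediates 16 were tested, with 5 below, 1 above, 10 overlapping and a median of -0.20. The shares over all genes tested were 23.8% below and 22.3% above. Slc25a15, which carries ornithine into mitochondria for the urea cycle, had 87.5 and 84.7 scaled FPKM in the knockout libraries, against 109.9 and 100.3 in the wild type libraries. Slc38a4, an amino acid transporter of the hepatocyte surface, had 273 and 296 scaled FPKM in the knockout libraries, against 305 and 385 in the wild type libraries. Slc1a2, the glutamate transporter of hepatocytes near the central vein, had 9.996 and 12.00 scaled FPKM in the knockout libraries, against 17.4 and 24.8 in the wild type libraries. Slc25a44, the mitochondrial branched chain amino acid carrier, had 13.04 and 17.7 scaled FPKM in the knockout libraries, against 17.8 and 21.2 in the wild type libraries. All 4 lay below wild type in both knockout libraries, by log2 differences of -0.28, -0.27, -0.86 and -0.33. Slc3a2, the shared chain of several transporters, was the gene above, with 12.3 and 14.7 scaled FPKM in the knockout libraries, against 10.5 and 9.82 in the wild type libraries.

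Markers of position and cell type were read beside these genes. Each count below stands beside shares over all genes tested of 23.8% below and 22.3% above wild type. Of 8 tested periportal markers out of 9 listed, 2 lay below and 4 above wild type, with summed levels of 1422 and 2079.7 scaled FPKM in the knockout and 1442 and 1639 in the wild type libraries. Pck1, which makes glucose from amino acid carbon, lay below, as did Ctsc. Pck1 had 533 and 617 scaled FPKM in the knockout libraries, against 822 and 986 in the wild type libraries. Apoa4, Igfbp2, Cdh1 and Aldh1b1 lay above. Apoa4 had 97.2 and 336 scaled FPKM in the knockout libraries, against 24.6 and 33.2 in the wild type libraries. Of 8 tested pericentral markers out of 10 listed, 2 lay below and 2 above. Their sums were 809 and 814 in the knockout and 885 and 1077 in the wild type libraries. Cyp2a5 alone had 261 and 153 in the knockout and 344 and 428 in the wild type libraries. The lower knockout sums therefore do not describe the list as a whole. Cyp2e1 had no usable locus in knockout replicate 2 and was not tested. Kupffer cell markers had 4 of 7 tested below and none above, with sums of 79.2 and 107 in the knockout and 109 and 133 in the wild type libraries. Stellate cell markers had 5 of 6 tested above and none below, with sums of 123 and 109.8 in the knockout and 106 and 84.9 in the wild type libraries. Sinusoidal endothelial markers, all 7 tested, had 1 below and 1 above, with sums of 59.3 and 76.7 in the knockout and 50.8 and 64.4 in the wild type libraries. Of 6 tested hepatocyte markers none lay below and 2 above. Of 6 cholangiocyte and 6 lymphocyte markers 1 each was tested, Spp1, which overlapped, and Ptprc, which lay above, and of 6 erythroid markers 0 were tested. The part of cell composition in the amino acid gene differences was not tested.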

How the data were processed

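Liver RNA of hemojuvelin knockout and wild type mice was sequenced from TruSeq libraries, 2 per genotype, on a HiSeq 2000, per the labels' protocols. FastQC, TopHat and Cufflinks, with no versions, and build mm9 are named in the submitters' processing notes. The deposited FPKM with their lower and upper bounds, also in FPKM, were made by the authors for loci assembled in each library, without gene names. The coordinates fitted GRCm38 and not mm9: 13.5% to 33.2% of loci over 2000 bases ended within 20 bases of an end of a GENCODE M21 gene, against 0.205% to 0.308% after a shift.

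Loci were assigned by position to 21776 protein-coding genes. A locus had to lie at least 50% inside 1 gene and share few bases with another, and a gene was given the average FPKM over its loci, each weighted by its exonic bases, where these together reached 50% of a coding transcript. The planned sum of entries per gene was kept as an alternative, since densities of pieces cannot be added, and these limits were set after the data were seen. Libraries were brought to a common level by the median of ratios, with factors of 1.20 and 0.954 for the knockout and 0.935 and 0.915 for the wild type libraries. Genes with at least 1 scaled FPKM in at least 2 libraries and a value in all 4 were kept, 7929 in all. Log2(scaled FPKM + 1) was compared two-sided by limma 3.58.1 (R 4.3.3), using a mean-variance trend and Benjamini-Hochberg adjustment over all 7929 genes at a threshold of 0.05. A fold on this scale understates the change of low genes. The calculations were tested on simulated data.

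The depth is an estimate that takes 1 step of the bounds as 1 fragment. Over the amino acid genes the bounds lay, at the median, within 2.69% and 1.85% of their own midpoint in the knockout libraries. In the wild type libraries they lay within 2.47% and 2.73% of it. The FPKM of a gene could lie outside its bounds, as for Hibch in wild type replicate 2, so these widths do not give the error of the value. The amino acid genes and the lists were chosen with earlier results of these data known. Values in every library were given for amino acid genes whose groups do not overlap and for those not tested, and from other lists for up to 5 genes with the smallest unadjusted p whose groups do not overlap. Other genes were named after their values were seen. Alternatives covered the pseudocount, the filter, the scaling, the trend, the replicate block, the value per gene, GC content and each library left out.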

Additional observations from a re-analysis of the deposited data

How the results depend on the processing

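Over the 13 alternatives that kept all 4 libraries, 13 to 25 amino acid genes lay below wild type in both knockout libraries and 3 to 9 above. The background moved as well, with 9.21% to 31.3% of all genes below and 17.5% to 35.9% above. The median log2 difference of the amino acid genes less that of all genes was -0.34 to -0.11. On the deposited scale 1 gene, higher in knockout liver, passed the adjusted threshold, 13 amino acid genes lay below and 9 above, and their median was -0.0705, where the median of all genes had shifted to 0.19. On that scale 9.21% of all genes lay below and 35.9% above wild type. The sum of entries gave 405 genes at an unadjusted p under 0.05 and 3 amino acid genes above wild type, where 17.5% of all genes lay above. Setting absent genes to 0 let 16 genes pass, 5 higher and 11 lower. Cyclic loess normalization, which was added after the data were seen like the removal of the GC trend, gave a median of -0.11. The cause of these shifts was not tested.

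With 1 library left out, 1 to 458 genes passed the adjusted threshold, 0 to 337 of them higher and 1 to 121 lower, and 257 to 2076 passed an unadjusted p of 0.05. The amino acid genes then had 30 to 37 without overlap, 22 to 29 below and 6 to 15 above, with medians of -0.43 to -0.26, where 32.8% to 41.2% of all genes lay below and 32.9% to 39.7% above. The lone library left in a group is assumed there to vary like the other group, and no overlap with 1 library against 2 is easier to reach. The adjusted p of Sugct ran from 0.0211 to 0.886.

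Of 697 log2 differences of single genes under alternatives, 655 kept their direction and their side of the adjusted threshold, 6 kept their direction and newly passed it, and 36 turned to the other direction, 18 of them with a library left out. These 36 came from 15 genes, of which 1, Dbt, had groups that did not overlap. On the deposited scale the log2 difference turned to 0.10 for Dbt, 0.0519 for Ftcd, 0.12 for Pcbd1, 0.0591 for Asl, 0.11 for Cps1, 0.0379 for Fah and 0.15 for Got2. After quantile normalization the log2 difference turned to 0.00345 for Pcbd1, 0.16 for Cps1 and 0.0467 for Got2. With the sum of entries the log2 difference turned to 0.13 for Uroc1. With the GC trend removed the log2 difference turned to -0.0494 for Sds. After cyclic loess the log2 difference turned to 0.0348 for Dbt, 0.000605 for Ftcd, 0.0761 for Pcbd1, 0.0172 for Asl, 0.0663 for Cps1 and 0.11 for Got2. With a library left out, the genes that turned had log2 differences of -0.93 to 0.64 for Asl, -0.66 to 0.46 for Cps1, -0.43 to 0.0942 for Fah, -1.53 to 1.23 for Ftcd, -0.0552 to 0.51 for Gldc, -0.80 to 0.12 for Gls2, -0.29 to 0.18 for Got2, -0.62 to 3.31 for Gstz1, -0.27 to 1.29 for Haao, -0.26 to 0.74 for Hpd, -0.27 to 0.0814 for Pcbd1, -0.67 to 0.17 for Prodh, -0.68 to 1.34 for Sds and -0.63 to 0.0734 for Uroc1. The 6 that newly passed were Agxt, Acmsd, Sds, Prodh2 and Sugct without knockout replicate 1 and Sugct without knockout replicate 2. The cause was not tested for any of these.

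The replicate numbers were shared by the groups, but same-numbered libraries had deviations that correlated at 0.0778 over the genes, so the numbers were not taken as pairs. With the replicate number as a block, 0 genes passed the adjusted threshold, where the smallest adjusted p was 0.454, against 486 genes higher and 360 lower at an unadjusted p under 0.05. The amino acid genes stayed at 21 below and 5 above. Depth limits the reading of low genes such as Sdsl and Sugct, and the number of libraries limits all of them.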

Other observations

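Regulators of these enzymes were read as a further list. Of 20 genes 17 were tested, 4 below and 6 above wild type in both knockout libraries, with a median log2 difference of 0.17. The shares over all genes tested were 23.8% below and 22.3% above. Gcgr, the glucagon receptor, had 27.4 and 86.8 scaled FPKM in the knockout libraries, against 14.5 and 17.3 in the wild type libraries, with the 2 knockout values far apart. Foxa2, a forkhead factor of hepatocytes, had 17.5 and 18.2 scaled FPKM in the knockout libraries, against 10.6 and 8.45 in the wild type libraries, a log2 difference of 0.85. Cebpa, which drives hepatocyte genes, had 166 and 125 scaled FPKM in the knockout libraries, against 108 and 79.4 in the wild type libraries. These 3 were higher in both knockout libraries, while Ppara, the fasting regulator of fat oxidation, was lower in both, with 41.2 and 40.0 scaled FPKM in the knockout libraries, against 47.7 and 55.6 in the wild type libraries. The insulin receptor gene Insr was also lower, with 11.02 and 9.70 scaled FPKM in the knockout libraries, against 16.2 and 12.1 in the wild type libraries. Foxo1 was also among the 4 below, with 7.64 and 6.70 scaled FPKM in the knockout libraries, against 22565 and 11.2 in the wild type libraries. Its value in wild type replicate 1 stood far from all the others, and the cause was not tested. None of the 17 passed the adjusted threshold in limma. The smallest limma adjusted p among Gcgr, Foxa2, Cebpa, Ppara and Insr was 0.402. At an unadjusted p under 0.05, 2 of the 17 were called, both higher. Over all genes tested 5.84% were higher and 5.35% lower in that way.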
